A study of Mus musculus with 26 samples.

Results

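The expression difference that added cJun made after 1 day of reprogramming was measured in mouse embryonic fibroblasts (MEF) by comparing 2 OSK-cJun day 1 libraries with 2 OSK day 1 libraries. A gene entered the comparison if its deposited value was at least 10 in at least 2 of these 4 libraries, which 13127 of the 18198 genes in the table met. The second highest of the 4 values was exactly 10 for 197 of these genes, and it was 9 for 219 of the 5071 genes left outside. The rule did not use the difference between the groups. OSK names the retroviral reprogramming factors Oct4 (gene Pou5f1), Sox2 and Klf4, and OSK-cJun names the same factors with cJun (gene Jun) added, so every library of both courses carried the OSK factors, those labelled day 0 included. Per the labels' protocols, MEFs of at most 2 passages were infected with retrovirus made in PlatE cells, a packaging line, and then kept in iCD1 medium or in a serum-containing ESC medium. The labels do not say which medium each library had, how long after infection day 0 was, or whether replicates were separate cultures. P-values therefore rest on the spread between replicate libraries, pooled over all groups of the series, which may be technical. The whole series held 26 libraries in 13 groups of 2, among them MEF, embryonic stem cells (ESC) and later days of both courses. The day 0 libraries of both courses, 2 each, served as a baseline, and 13059 genes met the same rule there, 12475 of them at both days.

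cJun is a basic leucine zipper protein that pairs with Fos, Atf or other Jun proteins to form AP-1, a transcription factor that binds the site TGACTCA and carries signals from growth factors and stress through MAP kinases. In fibroblasts AP-1 is part of the serum response and drives genes of proliferation, matrix turnover and migration, and in the epidermis AP-1 acts on keratins and genes of the cornified layer. In reprogramming, somatic genes are silenced and the genes of pluripotent cells are switched on, and cJun is known as a barrier to that course in mouse fibroblasts.

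The deposited values were a normalised score on the same set of steps in each library, with totals from 4619641 to 4624161 and with the 10 highest genes of each library tied at 21544. Because totals were equalised, the sequencing depth behind a value is unknown, and 7 genes that stood at the highest value in all 4 day 1 libraries could not show a difference. Of 15 fibroblast marker genes, 14 reached 10 in at least 1 of the 4 day 1 libraries and Dpt did not. Their summed value ran from 54298 to 56824, but Vim and Col1a2 made up most of it at the highest value of 21544 in all 4, so the sum could hardly differ. Among markers below that value, Col1a1 was at 5488 and 5488 with OSK and at 5488 and 5023 with OSK-cJun. Pdgfra was at 90 and 63 against 55 and 63. Thy1 was higher with OSK-cJun, at 416 and 114 against 1077 and 505, as was S100a4, at 911 and 445 against 1421 and 1281. Pdgfrb was lower, at 103 and 59 against 42 and 32. Of the 14 fibroblast markers tested, 7 had a day 1 log2 fold above 0. Replicates correlated at 0.9479 for OSK day 1 and at 0.9484 for OSK-cJun day 1 on the log2 scale, within the range of 0.9253 to 0.9602 over all groups. In bulk libraries, fewer cells of a type and less RNA per cell cannot be told apart.

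Jun checked the labels. Its values were 468 and 340 in the OSK day 1 libraries and 6929 and 6123 in the OSK-cJun day 1 libraries. All OSK-cJun libraries stood above all OSK libraries, with a log2 fold of 4.03 ± 0.37 (SE) and an adjusted p of 4.93e-05. The gap was already there at day 0, where Jun stood at 875 and 620 with OSK and at 4616 and 5023 with OSK-cJun (log2 fold 2.71, adjusted p = 0.00345). Reads of the vector and of the resident gene (Jun, ENSMUSG00000052684, protein coding, chromosome 4:95049034-95052222, GRCm38) may not be separable in these values. The OSK factors were present in both courses. Pou5f1 stood at the highest value of 21544 in all 4 day 1 libraries, so no difference could be read from it. Sox2 was at 6923 and 8974 with OSK and at 6116 and 8974 with OSK-cJun, and Klf4 was at 11663 and 11663 with OSK and at 6923 and 7715 with OSK-cJun. The Klf4 libraries did not overlap, but the difference did not pass the test (log2 fold -0.67 ± 0.50, adjusted p = 0.715), and the Sox2 libraries overlapped. The SE of each gene is pooled over all groups, among them OSK day 5, with Klf4 at 3263 and 11663 and Pou5f1 at 656 and 21544. At day 0 each of these factors was lower with OSK-cJun in non-overlapping libraries, without a call. Pou5f1 was then at 11662 and 8974 with OSK and at 6923 and 7715 with OSK-cJun. Sox2 was at 4302 and 4609 against 3263 and 3608, and Klf4 at 5481 and 6923 against 3769 and 4302. The part of factor levels in the day 1 differences was not tested. Myc, a growth regulator not named among the added factors, was at 372 and 249 with OSK and at 267 and 172 with OSK-cJun (log2 fold -0.50, adjusted p = 0.958). Sap30, a subunit of the Sin3 deacetylase complex that the series studied with a hairpin at a later day, was at 83 and 80 with OSK and at 53 and 47 with OSK-cJun, a difference that did not pass the test (log2 fold -0.70 ± 0.32, adjusted p = 0.381).

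At day 1, 193 genes were higher with cJun and 109 were lower, where a call required an adjusted p (Benjamini-Hochberg, from limma) below 0.05 and a log2 fold of at least 1 in size. These were 1.47 percent and 0.83 percent of the 13127 genes. The median log2 fold was -0.0403 and the median absolute log2 fold was 0.253. The former is held near 0 by the score's shared steps, so a shift of most genes together could not be seen. Of the genes called higher, 187 were protein coding, 91 had a log2 fold of at least 2 and 47 of at least 3. Of those called lower, 104 were protein coding, 49 had a log2 fold of -2 or below and 31 of -3 or below. All 302 called genes had groups that did not overlap, as did 5769 of the 13127 genes. The calls rest on a spread estimated over all 26 libraries. With the spread of the 4 day 1 libraries alone, 0 genes passed limma's test (smallest adjusted p 0.0977), although 2060 had an unadjusted p below 0.05 in that fit and 1753 in the fit over all libraries. Many calls were also lost in each of the 4 fits that left out 1 of the day 1 libraries. Such a fit holds 1 library in a group, so the part of that library itself in the loss was not tested. In each of these 4 fits 22 of the 193 and 10 of the 109 genes were called, Jun, Anxa11, Anxa8, Srpx2, Pthlh, Slurp1, Cd34 and Birc7 among the former and Trh, Tdh, Nnat, Vcam1, Slit2, Asns and Oas2 among the latter.

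**Figure D1:**
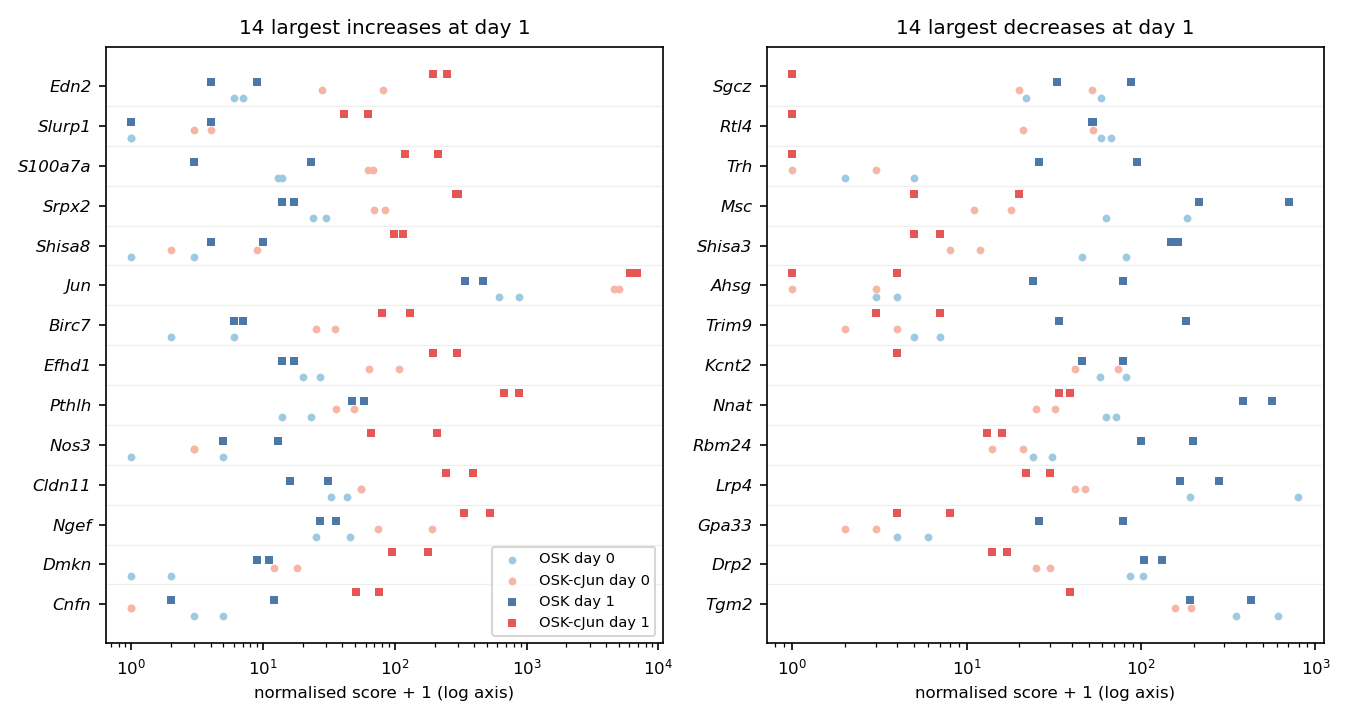
Normalised score plus 1 (log axis) in each of the 8 day 0 and day 1 libraries for the 14 genes with the largest increases (left) and the 14 with the largest decreases (right) at day 1 among called genes with a mean of at least 50 in the higher group. Each point is 1 library, circles are day 0, squares are day 1 and points of equal value overlie, and red squares lie to the right of all blue squares on the left and to the left of them on the right.

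Secreted signals were among the largest increases. Edn2, the vasoactive peptide endothelin-2 (ENSMUSG00000028635, chromosome 4:120161206-120167360), was at 8 and 3 in the OSK libraries and at 249 and 194 in the OSK-cJun libraries. This was the largest increase of the genes named by rule, with a log2 fold of 5.20 ± 0.81 and an adjusted p of 0.00276. Pthlh, the parathyroid hormone-like peptide, rose from 57 and 46 to 675 and 881 (log2 fold 3.89 ± 0.59, adjusted p = 0.00246). In MEF, Pthlh was at 6 and 2, so the OSK-cJun libraries of day 1 stood far above the starting cells. Among ligands of the EGF family, Hbegf, the heparin-binding ligand of the EGF receptor, was at 81 and 41 with OSK and at 431 and 486 with OSK-cJun (log2 fold 2.97 ± 0.52, adjusted p = 0.00546). The Hbegf difference at day 1 came with lower values in the OSK course than at day 0, where OSK held 431 and 289 and OSK-cJun 662 and 549. Nrg1, a neuregulin that binds ErbB receptors, rose from 89 and 115 to 398 and 306 (log2 fold 1.78 ± 0.30, adjusted p = 0.0048). Hbegf and Nrg1 were the called members among 11 EGF family genes, whose median log2 fold was 0.74. Ereg, a further EGF receptor ligand, was at 261 and 125 with OSK and at 611 and 349 with OSK-cJun and did not pass the test (log2 fold 1.35, adjusted p = 0.397).

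Further ligands were called that were singled out after their values were seen. Calcb, a calcitonin gene-related peptide, was at 90 and 102 with OSK and at 480 and 1123 with OSK-cJun (log2 fold 2.93, adjusted p = 0.0131). Wnt7a, a secreted Wnt protein, was at 13 and 5 with OSK and at 79 and 65 with OSK-cJun (log2 fold 2.99, adjusted p = 0.0176). Both genes were near 0 in ESC. Bmp6, the called member of the 19 BMP and Id genes, was at 7 and 18 with OSK and at 75 and 115 with OSK-cJun (log2 fold 2.93, adjusted p = 0.0268). Its day 0 values were 48 and 128 with OSK and 101 and 246 with OSK-cJun, so the OSK libraries of day 1 were the lowest of the 8. Ltbp1, which holds latent TGF-beta in the matrix, rose from 1797 and 1737 to 4624 and 4020 (log2 fold 1.29 ± 0.24, adjusted p = 0.00891) and was the called member of 23 TGF-beta and activin genes.

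Genes of the epidermis and its cornified layer formed a group that was put together after the values were seen, so its size is a description. Slurp1, a small secreted protein of skin, was at 0 and 3 with OSK and at 61 and 40 with OSK-cJun (log2 fold 4.66 ± 0.58, adjusted p = 0.000851). S100a7a, a psoriasin relative, was at 22 and 2 with OSK and at 211 and 118 with OSK-cJun (log2 fold 4.26, adjusted p = 0.0103). Dmkn, which encodes dermokine, was at 8 and 10 with OSK and at 176 and 94 with OSK-cJun (log2 fold 3.70, adjusted p = 0.0132). These 3 genes were at 0 in both MEF and both ESC libraries, and each stood higher in the OSK-cJun than in the OSK libraries at day 0 as well, with no call there. Cnfn, a component of the cornified envelope, was at 11 and 1 with OSK and at 75 and 50 with OSK-cJun (log2 fold 3.67, adjusted p = 0.05 after rounding). Krt6a, a keratin of activated epidermis, was at 24 and 31 with OSK and at 277 and 322 with OSK-cJun (log2 fold 3.41, adjusted p = 0.0325). Sfn, the 14-3-3 sigma protein of stratified epithelia, was at 66 and 30 with OSK and at 509 and 356 with OSK-cJun (log2 fold 3.23, adjusted p = 0.00891). In contrast to Slurp1, S100a7a and Dmkn, Sfn was also found in ESC, at 296 and 357. Krt13, a mucosal keratin, was at 42 and 42 with OSK and at 187 and 203 with OSK-cJun (log2 fold 2.19, adjusted p = 0.0434). Pkp1, a desmosome plaque protein, was at 21 and 66 with OSK and at 198 and 293 with OSK-cJun (log2 fold 2.66, adjusted p = 0.0088). Cdsn, which encodes corneodesmosin, was listed at 0 in both OSK libraries and was at 32 and 30 with OSK-cJun (adjusted p = 0.00296).

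Several defining keratinocyte genes stayed low beside these increases. Of 13 keratinocyte markers in the table, Krt5, Krt15, Krt17, Dsg3 and Lor stayed under 10 in all 4 day 1 libraries. Over the whole marker list the summed value was 199 and 182 with OSK and 1017 and 851 with OSK-cJun. Krt6a and Sfn were the called members of 7 tested, the median log2 fold was 0.95 and all 7 were above 0, against 45.3 percent of all genes. Krt14, the basal keratin, was at 20 and 12 with OSK and at 94 and 28 with OSK-cJun (log2 fold 1.67, adjusted p = 0.369). Of 14 tested epithelial genes 0 were called (2 at an unadjusted p below 0.05), with a median log2 fold of 0.59, and 13 of the 28 in the table stayed under 10 in all 4 libraries. Krt19, a keratin of simple epithelia, was at 43 and 22 with OSK and at 427 and 214 with OSK-cJun and narrowly missed the threshold (log2 fold 3.25 ± 0.89, adjusted p = 0.0721). Dsp, the desmosome protein desmoplakin, was at 896 and 983 with OSK and at 1349 and 2151 with OSK-cJun (adjusted p = 0.658). The Cdh1 libraries, for E-cadherin, were at 22 and 112 with OSK and at 15 and 18 with OSK-cJun (adjusted p = 0.547). The part of other cell types in the epidermal increases was not tested.

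The next genes encode proteins of the cell surface, of adhesion or of secretion, and they went in both directions. Srpx2, a secreted sushi-repeat protein that binds the urokinase receptor (ENSMUSG00000031253, chromosome X:133908426-133932446), was at 13 and 16 with OSK and at 298 and 292 with OSK-cJun. Its log2 fold was 4.26 ± 0.46 with an adjusted p of 0.000183, and its MEF libraries held 150 and 177. OSK-cJun libraries therefore stood above MEF, and OSK libraries below it. In the list of integrins with Cd44, 18 genes were tested, of which 3 were called higher and 1 lower, with a median log2 fold of 0.02. Cd44, the hyaluronan receptor, rose from 1615 and 1271 to 6942 and 5502 (log2 fold 2.11 ± 0.41, adjusted p = 0.0103). Itga6, an alpha chain of laminin receptors, rose from 1769 and 1419 to 7721 and 7721 (log2 fold 2.28 ± 0.45, adjusted p = 0.0126). Itga7, also a laminin receptor chain, rose from 90 and 65 to 317 and 304 (log2 fold 2.01 ± 0.44, adjusted p = 0.0218). The lower gene was Itga4, at 2628 and 3421 with OSK and 739 and 1391 with OSK-cJun (log2 fold -1.56 ± 0.32, adjusted p = 0.0166). Its ligand Vcam1 fell with it and is described with the decreases. Cldn11, a claudin of tight junctions, was at 30 and 15 with OSK and at 389 and 244 with OSK-cJun (log2 fold 3.79 ± 0.83, adjusted p = 0.0218). Cd34, a sialomucin of stem and stromal cells, was at 161 and 311 with OSK and at 1542 and 2316 with OSK-cJun (log2 fold 3.07 ± 0.50, adjusted p = 0.00372). Among the 14 tested fibroblast markers Cd34 was called higher and Pi16 lower (31 and 49 against 2 and 9, adjusted p = 0.0398), with a median log2 fold of 0.00.

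Several called genes act inside the cell. Anxa11, an annexin that binds membranes in the presence of calcium (ENSMUSG00000021866, chromosome 14:25842156-25886804), was at 187 and 212 with OSK and at 754 and 686 with OSK-cJun (log2 fold 1.85 ± 0.18, adjusted p = 4.93e-05). Anxa8, a second annexin that was singled out after its values were seen, rose from 821 and 919 to 3609 and 3771 (log2 fold 2.09 ± 0.25, adjusted p = 0.000672). In MEF, Anxa8 was at 150 and 102, below every day 1 library. Capg, an actin-capping protein, rose from 231 and 250 to 606 and 731 (log2 fold 1.47, adjusted p = 0.0016). Kank1, a regulator of the cell cortex, rose from 226 and 199 to 634 and 683 (log2 fold 1.63, adjusted p = 0.00104). Capg and Kank1 were also singled out afterwards, because they were called in each of the 4 fits without a day 1 library. Efhd1, a calcium-binding mitochondrial protein, was at 16 and 13 with OSK and at 192 and 296 with OSK-cJun (log2 fold 3.96, adjusted p = 0.00862). Birc7, an inhibitor of apoptosis protein, was at 6 and 5 with OSK and at 79 and 129 with OSK-cJun (log2 fold 3.98, adjusted p = 0.0016). Ngef, a guanine nucleotide exchange factor, was at 35 and 26 with OSK and at 334 and 525 with OSK-cJun (log2 fold 3.75, adjusted p = 0.0135). The libraries of each of these genes stood clear of the other group. Nos3, the endothelial nitric oxide synthase, was at 12 and 4 with OSK and at 65 and 206 with OSK-cJun, with wide spread between the OSK-cJun replicates (log2 fold 3.86 ± 0.87, adjusted p = 0.0267). Shisa8, an accessory protein of AMPA receptors, was at 9 and 3 with OSK and at 98 and 115 with OSK-cJun (log2 fold 4.08, adjusted p = 0.00892). Ptgs1, the constitutive cyclooxygenase, was singled out afterwards and rose from 56 and 35 to 340 and 419 (log2 fold 3.06, adjusted p = 0.00296). Ptgs2, the inducible cyclooxygenase, was at 2414 and 1317 with OSK and at 7737 and 4631 with OSK-cJun and narrowly missed the threshold (log2 fold 1.75 ± 0.45, adjusted p = 0.0526).

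Promoters were searched for the AP-1 site because AP-1 binds it, and among the largest increases and decreases the windows of 2 genes held it. RefSeq promoter windows of GRCm38.p6, from 250 bases before to 50 bases after a start, were found by symbol for 9982 of the 13127 genes and for 20 of the 28 genes of the largest increases and decreases. TGACTCA on either strand lay in a window of 19 of 159 genes called higher (11.9 percent), of 3 of 80 called lower (3.75 percent) and of 463 of all 9982 (4.64 percent). Genes called higher had 227 windows for 159 genes, and all genes 12804 for 9982. The looser form TGANTCA, which takes in the former, lay in windows of 13.8 percent of genes called higher, 7.5 percent of those called lower and 6.45 percent of all. TGACGTCA, the cAMP-response form of the site, lay in 3.77, 1.25 and 3.53 percent. Among these 20 genes Srpx2 had the site 59 bases before its start. Dmkn had it 89 bases before a start and 82 bases before another start. The upstream windows of Srpx2 and of the former Dmkn start are chrX:133908175-133908424 and chr7:30763506-30763755, both plus strand, with the site in capitals.
Srpx2: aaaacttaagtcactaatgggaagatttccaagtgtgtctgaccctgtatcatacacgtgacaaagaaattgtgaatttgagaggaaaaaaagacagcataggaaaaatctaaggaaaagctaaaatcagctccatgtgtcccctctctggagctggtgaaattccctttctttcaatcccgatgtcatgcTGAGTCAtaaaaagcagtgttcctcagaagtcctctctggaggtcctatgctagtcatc
Dmkn: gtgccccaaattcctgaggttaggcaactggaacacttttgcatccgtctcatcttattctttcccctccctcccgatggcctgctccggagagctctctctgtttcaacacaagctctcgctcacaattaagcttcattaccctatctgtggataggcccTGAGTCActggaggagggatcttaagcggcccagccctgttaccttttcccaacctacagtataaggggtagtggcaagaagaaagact
Krt13 had the site at 183 and at 34 bases before its start, and the called lysosomal gene Cd68 at 149 and 24 bases. These stretches of 29 bases are shown to compare the sites of genes with a pair before the same start. They lie at chr11:100120743-100120771 and chr11:100120594-100120622 for Krt13 and at chr11:69666302-69666330 and chr11:69666177-69666205 for Cd68, all minus strand.
Krt13 far site: actgttacttgTGACTCAgttgctataac
Krt13 near site: tcagtgggcaaTGACTCAgagggtgtaaa
Cd68 far site: taagttccgtgTGAGTCAgctgcctcatt
Cd68 near site: gctgaggtgtcTGAGTCAggtttggggtg
A match is a run of letters in a window and not a site shown to be bound in these cells.

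The largest decreases were found in genes of different kinds. Trh, the precursor of thyrotropin-releasing hormone (chromosome 6:92242061-92244650), was at 25 and 94 with OSK and was listed at 0 in both OSK-cJun libraries (adjusted p = 0.00166). Sgcz, a sarcoglycan of the dystrophin complex, was at 32 and 86 with OSK and was listed at 0 in both OSK-cJun libraries (adjusted p = 0.0055). Rtl4, a gene derived from a retrotransposon, was at 51 and 52 with OSK and was also listed at 0 in both (adjusted p = 0.0398). No fold is given for genes listed at 0 in a group, of which there were 11 among the 109 lower and 8 among the 193 higher genes. In the OSK-cJun libraries of day 0 and day 3, Sgcz ran from 19 to 51 and Rtl4 from 20 to 52, while at day 7 Rtl4 was listed at 0 in replicate 1 of both courses and was at 42 with OSK and 43 with OSK-cJun in replicate 2. Drp2, a dystrophin relative, was at 103 and 131 with OSK and at 13 and 16 with OSK-cJun (log2 fold -2.93 ± 0.42, adjusted p = 0.0016). Trim9, a ubiquitin ligase of neurons, was at 33 and 180 with OSK and at 2 and 6 with OSK-cJun (log2 fold -4.10, adjusted p = 0.00276). Nnat, the imprinted proteolipid neuronatin, fell from 382 and 562 to 33 and 38 (log2 fold -3.67 ± 0.53, adjusted p = 0.00185). The OSK libraries of Trim9 differed widely between replicates, while those of Nnat lay close. Kcnt2, a sodium-activated potassium channel, was at 45 and 78 with OSK and at 3 and 3 with OSK-cJun (log2 fold -3.91, adjusted p = 0.0354). Its replicates lay far apart in OSK-cJun at day 3 (3 and 41) and with the Sap30 hairpin at day 7 (3 and 52). At day 7 Kcnt2 was at 56 and 58 with OSK and at 3 and 4 with OSK-cJun.

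Further large decreases are given here by gene. Msc, the basic helix-loop-helix factor musculin, was at 213 and 700 with OSK and at 4 and 19 with OSK-cJun (log2 fold -5.28 ± 0.86, adjusted p = 0.00377). Shisa3, an inhibitor of Wnt and FGF receptors, was at 148 and 162 with OSK and at 4 and 6 with OSK-cJun (log2 fold -4.72 ± 0.78, adjusted p = 0.00372). Rbm24, a splicing regulator of muscle, was at 99 and 198 with OSK and at 15 and 12 with OSK-cJun (log2 fold -3.29, adjusted p = 0.0117). For all 3 genes the highest OSK-cJun library was far below the lowest OSK library. Lrp4, a receptor for agrin and Wnt inhibitors, was at 167 and 279 with OSK and at 21 and 29 with OSK-cJun (log2 fold -3.08 ± 0.49, adjusted p = 0.00327). Tgm2, a transglutaminase that crosslinks matrix, was at 190 and 424 with OSK and at 38 and 38 with OSK-cJun (log2 fold -2.87, adjusted p = 0.0342). Ahsg, the serum glycoprotein fetuin-A, was at 23 and 78 with OSK and at 0 and 3 with OSK-cJun (log2 fold -4.44, adjusted p = 0.00375), and Gpa33, an antigen of gut epithelium, was at 25 and 78 against 3 and 7 (adjusted p = 0.00788). Vcam1, the adhesion molecule that binds integrin alpha-4, was chosen after its values were seen because it was among the most highly expressed genes called lower. Vcam1 was at 11662 and 11662 with OSK and at 2121 and 1671 with OSK-cJun (log2 fold -2.63 ± 0.41, adjusted p = 0.00276). At day 0 Vcam1 was at 2614 and 1291 with OSK and at 955 and 685 with OSK-cJun, and in MEF at 826 and 1009. The high Vcam1 values of the OSK course at day 1 were gone by day 3, when OSK held 516 and 462 and OSK-cJun 313 and 359.

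Among 29 tested axon guidance genes, Epha4, an ephrin receptor, was higher (270 and 241 against 537 and 574, log2 fold 1.12, adjusted p = 0.0309). In the same list the ligand genes Slit2 and Sema3e were lower. Slit2 fell from 4631 and 4319 to 1706 and 1013 (log2 fold -1.77 ± 0.25, adjusted p = 0.0016), and Sema3e from 2133 and 1464 to 355 and 511 (log2 fold -2.05 ± 0.49, adjusted p = 0.037). Tdh, the threonine dehydrogenase on which mouse ESC depend, was the called member of 8 tested pluripotency genes and was at 22 and 45 with OSK and at 0 and 2 with OSK-cJun (log2 fold -4.23 ± 0.61, adjusted p = 0.0016). Asns, asparagine synthetase and a target of the amino acid response, fell from 656 and 1090 to 303 and 267 (log2 fold -1.57 ± 0.20, adjusted p = 0.00106) and was the called member of 24 stress genes. Both courses had Asns between 394 and 479 at day 0, so at day 1 the OSK libraries stood above and the OSK-cJun libraries below those values. Oas2, an interferon-induced antiviral enzyme, fell from 21 and 24 to 7 and 6 (log2 fold -1.65 ± 0.24, adjusted p = 0.0016) and was the called member of 20 interferon genes, whose median log2 fold was -0.21. Pdha1, a subunit of pyruvate dehydrogenase named after its values were seen, fell from 2542 and 2405 to 1017 and 957 (log2 fold -1.32 ± 0.21, adjusted p = 0.00323).

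Most of the lists drawn up for cJun targets, fibroblast identity and reprogramming held no called gene. Of 36 lists 22 had 0 called members among 388 tests of members by limma, with list medians from -0.51 to 0.62, and over all lists 23 of 607 different genes were called. Over all 13127 genes 302 were called, 1.47 percent higher and 0.83 percent lower. At these shares a short list can hold 0 calls without standing apart from other genes. Among 15 tested AP-1 genes other than Jun 0 were called and 0 had an unadjusted p below 0.05, with a median log2 fold of 0.14. Fosl1, a Fos protein induced by growth factors, was at 418 and 227 with OSK and at 706 and 460 with OSK-cJun (log2 fold 0.89 ± 1.04, adjusted p = 0.894). Junb, a Jun relative, was at 672 and 454 with OSK and at 296 and 245 with OSK-cJun (log2 fold -1.03 ± 0.64, adjusted p = 0.613). The replicate error of these early-response genes was large, so sizeable differences could have gone uncalled. Of 23 matrix proteases and inhibitors 0 were called (2 at an unadjusted p below 0.05), and of 15 inflammatory factors 0 (4 at an unadjusted p below 0.05). Plaur, the urokinase receptor, was at 397 and 285 with OSK and at 1076 and 1067 with OSK-cJun and did not pass the test (log2 fold 1.67, adjusted p = 0.193). Dusp10, a phosphatase of stress-activated kinases, was the called member of 21 feedback genes of MAP kinases and rose from 94 and 85 to 399 and 307 (log2 fold 1.96 ± 0.38, adjusted p = 0.0103).

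Fibroblast and cell cycle lists moved little. The 34 extracellular matrix genes had 0 calls and a median log2 fold of -0.15, the 16 contractile genes 0 calls and -0.12, and the 21 mesenchymal transcription factors 0 calls and 0.17. In these lists 5, 3 and 2 genes had an unadjusted p below 0.05, as did 1753 of all 13127 genes. Acta2, smooth muscle actin, was at 2260 and 823 with OSK and at 1253 and 424 with OSK-cJun, so the libraries overlapped. Twist1, a mesenchymal regulator, was at 772 and 567 with OSK and at 885 and 896 with OSK-cJun (log2 fold 0.43, adjusted p = 0.876). Of 34 cell cycle genes 0 were called and 0 had an unadjusted p below 0.05. But 3 had a log2 fold above 0, against 45.3 percent of all genes, and the median was -0.25 against -0.0403 for all genes. Mki67, the proliferation antigen, was at 3159 and 1863 with OSK and at 2263 and 1079 with OSK-cJun (log2 fold -0.63 ± 0.51, adjusted p = 0.752). The remaining lists without a call covered Hox genes (28, median -0.26), Sin3 and NuRD subunits (23, median -0.18), p53 targets (20, median -0.20), cholesterol synthesis (22, median 0.16), glycolysis and hypoxia (20, median -0.12), Yap and Tead targets (16, median -0.30), oxidant response (15, median -0.18), Igf genes (15, median -0.11), Wnt (23, median -0.07), Notch (11, median 0.01), and cyclins with Cdk inhibitors (12, median -0.24). In each of these 11 lists between 0 and 6 members had an unadjusted p below 0.05. By limma, 2 Yap and Tead targets and 1 cholesterol gene had an adjusted p below 0.05 and missed only the fold minimum. Of the 16 Yap and Tead targets, 3 had a log2 fold above 0, against 45.3 percent of all genes, and 6 had an unadjusted p below 0.05 by limma.

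**Figure D2:**
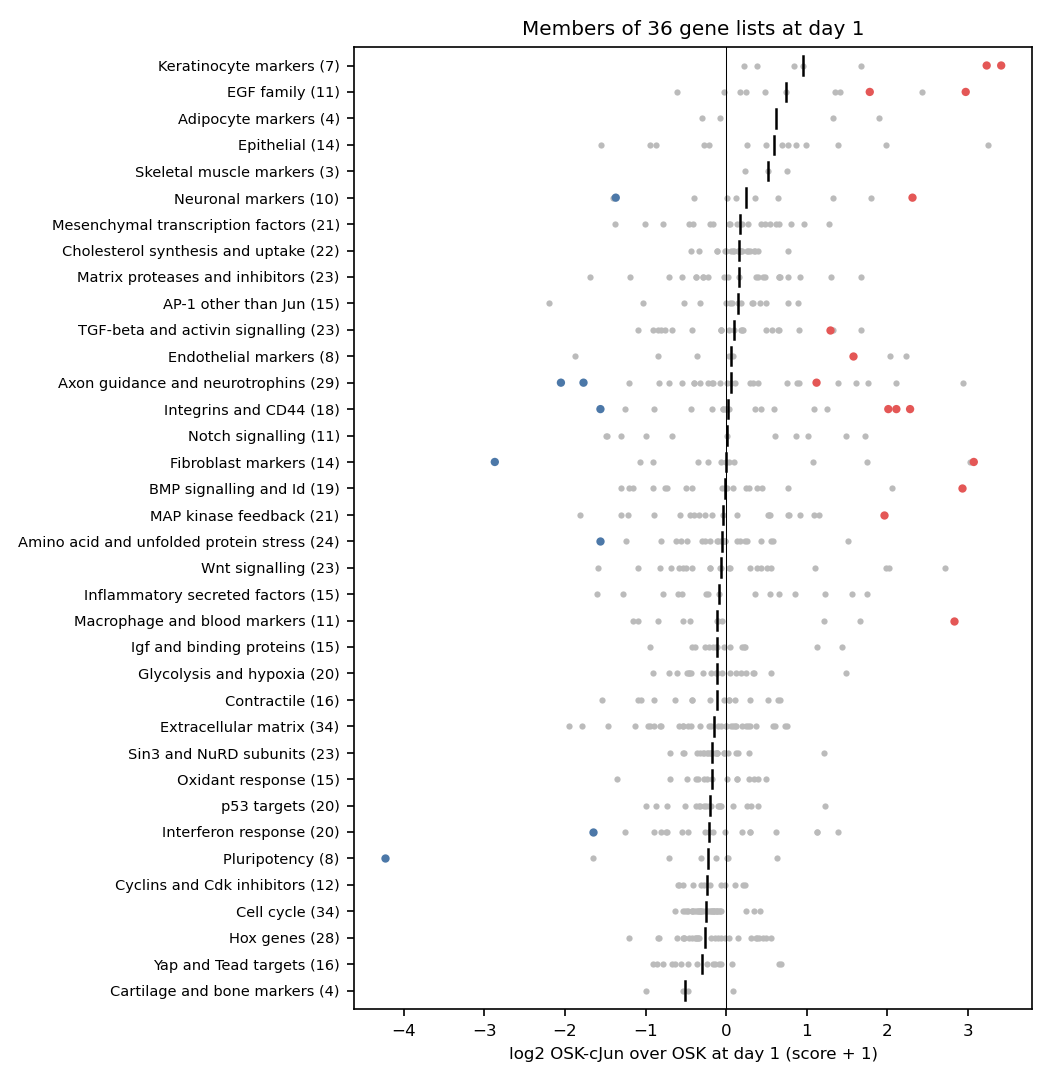
Log2 fold of OSK-cJun over OSK at day 1 (score plus 1) for each tested member of 36 gene lists, ordered by list median, with the number of tested members in parentheses. Grey points were not called, red points were called higher and blue points lower, and the black bar is the list median, from -0.51 for cartilage and bone markers to 0.95 for keratinocyte markers.

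Summed values of some markers of other cell types were higher with cJun. Neuronal markers (18 in the table, 4 at 0 and 8 under 10 in all 4 day 1 libraries, among them Dcx, Snap25 and Syp) summed to 8188 and 8524 with OSK and to 13140 and 14682 with OSK-cJun. Most of the gap was Nefl, a neurofilament chain, at 1989 and 2310 against 6124 and 8981 (log2 fold 1.79, adjusted p = 0.337), while Stmn2, a tubulin-binding protein, was at 3161 and 3279 against 3040 and 1950 and Syt1, a vesicle protein, at 441 and 808 against 197 and 253. The pooled spread behind the Nefl test took in MEF libraries at 13 and 0. Tubb3, the neuronal beta-tubulin, rose from 265 and 247 to 1386 and 1175 (log2 fold 2.31, adjusted p = 0.0112), while Map2, a dendritic microtubule protein, fell from 907 and 503 to 298 and 227 (log2 fold -1.37, adjusted p = 0.0252), so the called neuronal markers went both ways. Adipocyte markers summed to 3773 and 3167 with OSK and to 7914 and 9113 with OSK-cJun. Most of that sum was Lpl, lipoprotein lipase, at 3617 and 3040 against 7733 and 8993 (log2 fold 1.33 ± 0.37, adjusted p = 0.0759), and Fabp4, a fatty acid carrier that marks adipocytes, was at 11 or below in all 4 libraries. Endothelial markers summed to 934 and 763 with OSK and to 1980 and 1449 with OSK-cJun, with Cdh5, Cldn5, Pecam1 and Tie1 under 10 in all 4. Tek, the angiopoietin receptor, was the called endothelial marker and rose from 155 and 186 to 600 and 424 (log2 fold 1.57, adjusted p = 0.0218). Macrophage markers summed to 663 and 323 with OSK and to 709 and 752 with OSK-cJun, with Aif1 and Tyrobp under 10 in all 4, and Cd68 was the called member (80 and 45 against 313 and 599, log2 fold 2.83, adjusted p = 0.0294). Skeletal muscle markers summed to 118 and 77 with OSK and to 166 and 78 with OSK-cJun, and cartilage and bone markers to 518 and 671 and to 545 and 505, with 0 calls and 0 unadjusted p below 0.05 in either list. Adipocyte markers had 0 calls and 2 such genes among 4 tested. The part of these cell types in the day 1 calls was not tested.

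The baseline comparison at day 0 gave few calls. With the same test, 4 genes (0.0305 percent) were higher and 6 (0.0457 percent) lower in OSK-cJun than in OSK at day 0, against 193 and 109 at day 1, and the median absolute log2 fold was 0.184 against 0.253. An unadjusted p below 0.05 was reached by 577 genes at day 0. Jun, Birc7 and Serinc5 were called higher at both days, and Egfl6 and Lrp4 lower at both, 5 genes that became 0 to 3 when any of the 8 libraries was left out. Serinc5, a membrane protein, was at 341 and 417 with OSK and at 1588 and 1609 with OSK-cJun at day 0 (log2 fold 2.08, adjusted p = 0.00234) and at 838 and 1088 against 2405 and 3269 at day 1 (log2 fold 1.55, adjusted p = 0.00547). Lrp4 was at 190 and 797 with OSK and at 41 and 47 with OSK-cJun at day 0 (log2 fold -3.12, adjusted p = 0.0194). Neither gene passed the test for a different effect at day 1. The other day 0 calls were Ttc7, higher, and Pcsk1, Prx, Trim34b and Gm5941, lower, with 0 of the 5 called at day 1. The 10 day 0 calls became 6 without OSK day 0 replicate 1 or replicate 2, 9 without OSK-cJun day 0 replicate 1 and 1 without its replicate 2. Of these, Prx, a scaffold protein of myelinating cells, was at 382 and 433 with OSK and at 81 and 94 with OSK-cJun at day 0 and at 78 and 85 against 44 and 33 at day 1 (adjusted p = 0.162).

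Genes called at day 1 tended to lean the same way at day 0, in libraries that did not enter the day 1 comparison. Of the 193 genes called higher, 169 (87.6 percent) had a day 0 log2 fold above 0, against 52.8 percent of all 13127 genes, and their median was 0.59. Of the 109 called lower, 99 (90.8 percent) were below 0 at day 0, against 47.1 percent of all genes, with a median of -0.73. The day 1 medians of these genes, which chose them, were 1.93 and -1.86. Whether the effect itself grew from day 0 to day 1 was tested by an interaction, which 2 genes passed upward (0.0152 percent) and 0 downward (0 percent), with 580 genes at an unadjusted p below 0.05. Anxa11 was at 193 and 262 with OSK and 243 and 255 with OSK-cJun at day 0, a log2 fold of 0.15, against 1.85 at day 1 (difference 1.70, adjusted p = 0.0413). Pcsk1, a protease that matures peptide hormones, was at 25 and 46 with OSK and at 4 and 3 with OSK-cJun at day 0 and at 86 and 106 against 72 and 66 at day 1 (difference 2.50, adjusted p = 0.0463). The Anxa11 difference opened between the days, and the Pcsk1 difference narrowed. For the other genes called at day 1 the difference between the days did not pass this test, which does not show that the effects were equal. The count of 2 became 1 without OSK day 0 replicate 2 or OSK-cJun day 1 replicate 1, 0 without OSK-cJun day 0 replicate 2 and 5 without OSK day 1 replicate 1 or OSK-cJun day 1 replicate 2.

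**Figure D3:**
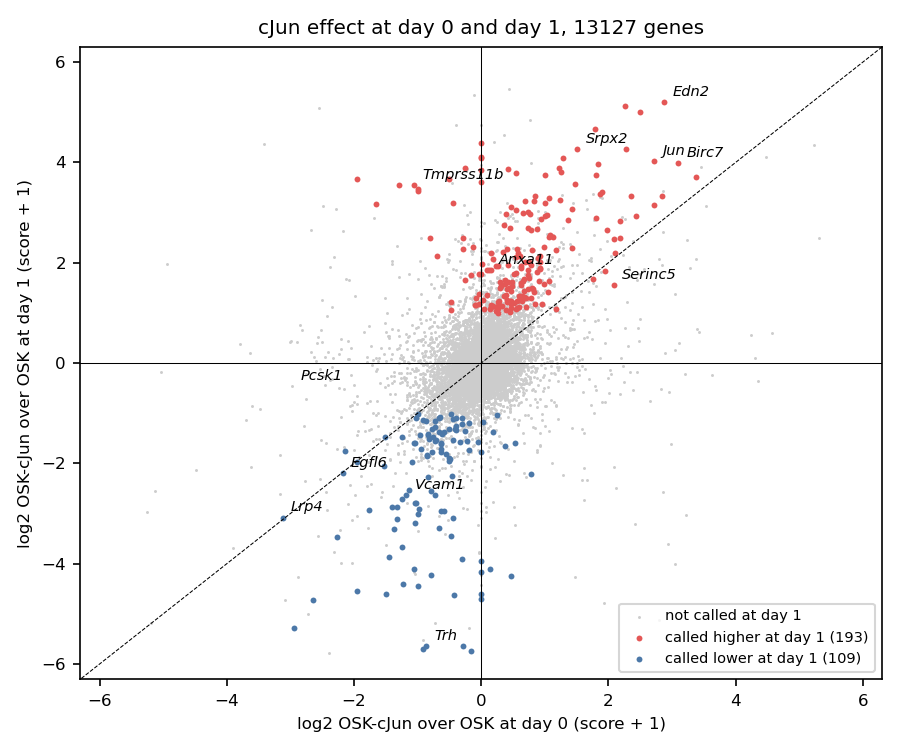
Log2 fold of OSK-cJun over OSK at day 0 (x axis) and at day 1 (y axis) for the 13127 genes, on the log2 (score plus 1) scale, with the dashed line marking equal effects. Red points are the 193 genes called higher at day 1 and blue points the 109 called lower, and most of them lie on the same side of 0 at day 0 but nearer to 0 than at day 1.

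The first day itself changed more genes than cJun did. From day 0 to day 1, 477 genes (3.63 percent) rose and 413 (3.15 percent) fell in the OSK course, and 670 (5.1 percent) rose and 507 (3.86 percent) fell in the OSK-cJun course. The courses share no library, but their calls use the same spread per gene. Risen in both were 300 genes, 62.9 percent of the OSK and 44.8 percent of the OSK-cJun risers, and fallen in both were 285, 69 percent and 56.2 percent. No gene, 0 in either direction, was called in opposite directions. The 477 genes that rose with OSK had a median log2 change of 1.81 there and 1.56 with OSK-cJun, with 463 changed in the same direction. The 413 genes that fell with OSK had medians of -1.81 and -1.53, with 404 in the same direction. Conversely, the 670 genes that rose with OSK-cJun had medians of 1.28 with OSK and 1.93 with OSK-cJun. The 507 that fell with OSK-cJun had medians of -1.37 and -1.68. Each set had the larger median in the course that chose it, which selection alone can give, so these medians do not compare the courses. The total of 890 calls in the OSK course became 526 and 544 without day 0 replicate 1 and 2, and 356 without day 1 replicate 2. In the OSK-cJun course 1177 became 760 and 683 without day 0 replicate 1 and 2, and 591 without day 1 replicate 2. For the genes called higher with cJun at day 1, a call that shares libraries with both courses, the median first-day change was 0.00 with OSK and 1.32 with OSK-cJun. For those called lower, it was 0.66 with OSK and -0.60 with OSK-cJun. Fam107a, an actin-binding protein singled out after its values were seen, went from 9 and 6 to 31 and 23 in the OSK course and from 4 and 6 to 332 and 369 in the OSK-cJun course. Tmprss11b, a membrane serine protease also singled out afterwards, went from 28 and 52 to 121 and 218 with OSK and from 16 and 20 to 851 and 4319 with OSK-cJun. Both genes rose in both courses by value and ended higher with cJun, with day 1 log2 folds of 3.66 (adjusted p = 0.00275) and 3.55 (adjusted p = 0.00289).

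**Figure D4:**
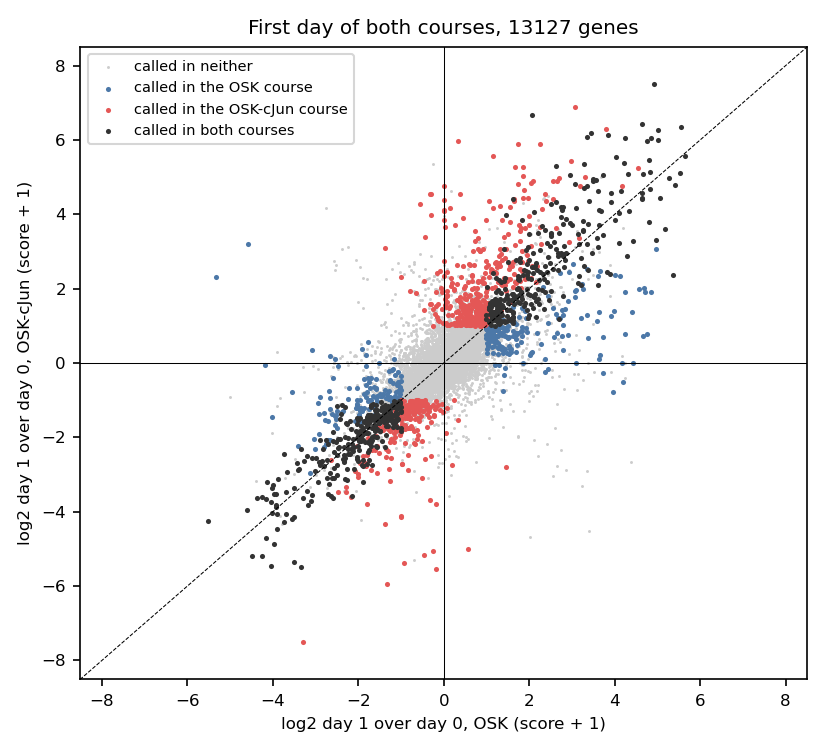
Log2 change from day 0 to day 1 in the OSK course (x axis) and in the OSK-cJun course (y axis) for the 13127 genes, on the log2 (score plus 1) scale, with the dashed line marking equal change. Black points were called in both courses, blue and red points in the OSK or the OSK-cJun course, and grey points in neither, and black points lie in the lower left and upper right.

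Genes called at day 1 were also followed in later libraries, which share none with day 1. Calls of all days use the same spread per gene, estimated over all 26 libraries, so shared calls are not independent. The cJun effect called 606 genes higher (4.62 percent) and 423 lower (3.22 percent) at day 3, and 1018 higher (7.76 percent) and 549 lower (4.18 percent) at day 7. At day 3, 132 of the 193 genes higher at day 1 were called higher, 68.4 percent of them and 21.8 percent of the day 3 list, and 68 of the 109 lower genes were called lower, 62.4 percent and 16.1 percent, with 0 genes called in opposite directions. At day 7, 122 of the 193 were called higher, 63.2 percent of them and 12 percent of the day 7 list, and 43 of the 109 were called lower, 39.4 percent and 7.83 percent. Without OSK day 1 replicate 1 and 2, and without OSK-cJun day 1 replicate 1 and 2, the 200 genes called in the same direction at days 1 and 3 became 109, 34, 52 and 78, and the 165 of days 1 and 7 became 85, 31, 45 and 59. Day 3 log2 folds were above 0 in 186 of the 193 higher genes and below 0 in 102 of the 109 lower genes. Day 7 log2 folds kept these signs in 176 and 87 genes. Medians over the 193 were 1.88 at day 3 and 1.58 at day 7, and over the 109 they were -1.71 and -0.96. Opposite calls at day 7 were made for 6 genes, with Anpep, Ier5 and Gm45837 higher at day 1 and lower at day 7, and Sema3e, Kctd15 and Pcolce lower at day 1 and higher at day 7. Sema3e, a guidance ligand, was at 165 and 140 with OSK and at 573 and 412 with OSK-cJun at day 7.

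**Figure D5:**
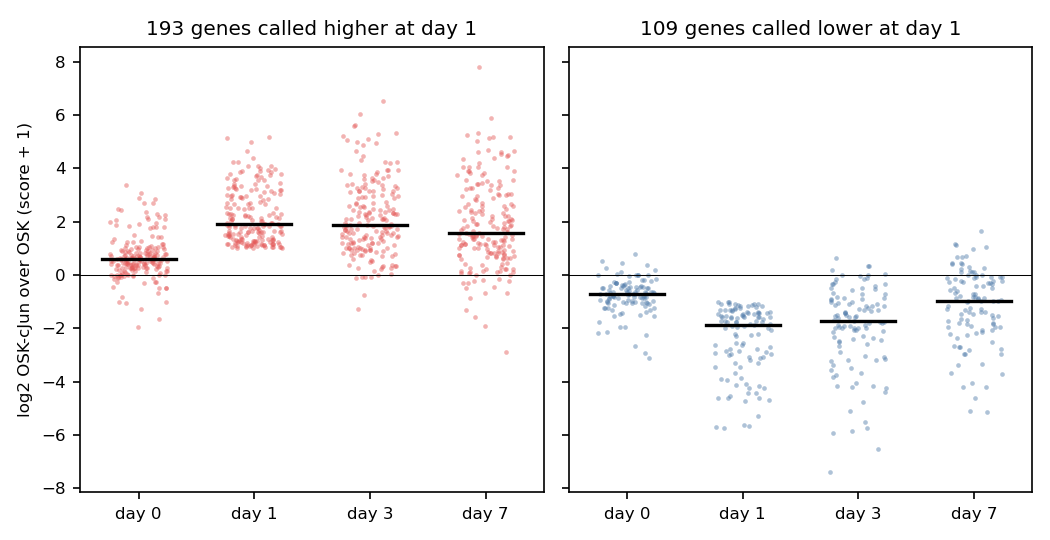
Log2 fold of OSK-cJun over OSK (score plus 1) at days 0, 1, 3 and 7 for the 193 genes called higher (left) and the 109 called lower (right) at day 1. Each point is 1 gene and black bars are medians, from 0.59 at day 0 to 1.93, 1.88 and 1.58 for the higher genes and from -0.73 to -1.86, -1.71 and -0.96 for the lower genes, with the day 1 values those that chose the genes.

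Pthlh shows an increase that lasted, with 6 and 14 in OSK against 374 and 466 in OSK-cJun at day 3, and 9 and 8 against 441 and 290 at day 7. Srpx2 held 9 and 8 against 377 and 373 at day 3 and 2 and 2 against 118 and 99 at day 7. Nos3 did not last, with 3 and 1 against 8 and 20 at day 3 and 1 and 1 against 2 and 7 at day 7, and was called at neither day. Edn2 was called at both later days on lower values, with 1 and 0 against 22 and 42 at day 3. Some of the decreases at day 1 preceded a large rise in the OSK course. Trh reached 3769 and 6116 with OSK at day 3 and 27 and 28 with OSK-cJun. Gpa33 reached 620 and 1097 with OSK at day 3 and 14 and 37 with OSK-cJun, and Tdh 357 and 444 against 12 and 5. Oas2 reached 2711 and 2616 against 325 and 261. All 4 genes were called lower with cJun at both day 1 and day 3.

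The lists from other libraries of the series show how these genes move without cJun. From day 0 to day 3 of the OSK course, 1071 genes rose (8.16 percent) and 1226 fell (9.34 percent). Of the 109 genes lower with cJun at day 1, 45 were among the risers, 41.3 percent of the 109 and 4.2 percent of the risers, and 15 among the fallers, 13.8 percent and 1.22 percent. Of the 193 higher genes, 31 were among the risers, 16.1 percent of the 193 and 2.89 percent of the risers, and 48 among the fallers, 24.9 percent and 3.92 percent. The fallers included Cd44, Itga6, Hbegf, Bmp6, Srpx2, Anxa8, Capg and Ptgs1, and the risers Krt13, Dmkn, Slurp1, Pkp1, Cd68 and Serinc5. Between MEF and ESC, 2977 genes were higher in MEF (22.7 percent) and 2532 higher in ESC (19.3 percent). Of the 193 genes higher with cJun, 62 were higher in MEF (32.1 percent) and 45 in ESC (23.3 percent), and of the 109 lower genes 30 were higher in MEF (27.5 percent) and 32 in ESC (29.4 percent). These shares were 2.08, 1.78, 1.01 and 1.26 percent of the MEF and ESC lists.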

How the data were processed

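Libraries from TRIzol RNA of reprogramming MEF were prepared with a TruSeq RNA kit, which does not mark strand, and run on a NextSeq 500 instrument, according to the labels' protocols. The tools named are bcl2fastq, Bowtie2 and RSEM, and the genome build is mm10; versions are not given in the sources used here (per the submitters' processing notes). The values the authors deposited are a whole-number normalised score and not counts: values of equal rank differed by at most 2 between any libraries, so no count test was used and no interval or floor per value could be given. Genes sharing reads with near-identical copies, antisense genes and overlapping genes are uncertain.

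The 18198 gene identifiers were matched to GRCm38, 18039 with a symbol and 159 without, and 0 sample columns were left unused. Scores plus 1 were taken to log2, so fold changes of low genes are understated. limma 3.58.1 in R 4.3.3, with a mean-dependent prior variance and its robust option (statmod 1.5.0), was fitted to the 16038 genes that reached 10 in 2 or more of 26 libraries, with 1 mean for each of 13 groups. All adjusted p are limma's with Benjamini-Hochberg adjustment over 16038 genes, and SE are limma's. The 13127 genes of the comparison are counted from that fit. A call needs an adjusted p below 0.05 and a log2 fold of at least 1 in size. The interaction is the day 1 fold minus the day 0 fold. Scripts were tested on simulated data. Alternatives were the added constant, the filter, the libraries that give the spread, the variance model, centring, the fold minimum, a replicate block and leaving out each library. The counts of genes called in all 4 fits without a day 1 library and of calls shared with the OSK course at day 3, with MEF against ESC and between the first days were added after seeing the data.

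Named genes were Jun, Pou5f1, Sox2, Klf4, Myc and Sap30, the 14 largest called increases and 14 largest called decreases with a mean of at least 50 in the higher group, libraries that do not overlap and a proper gene symbol, the called interactions, and up to 4 called members of each list, and other genes are said to be chosen after their values were seen or were added from the lists for their role. The genes and lists were chosen with earlier results of these data known. Clauses on gene function are general knowledge. Promoter windows are RefSeq's of GRCm38.p6. Tables and figures were made in Python 3.11.15 with pandas 2.3.3, numpy 2.4.6 and matplotlib 3.10.9.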

Additional observations from a re-analysis of the deposited data

Results flagged for a closer look

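The effect of cJun differed between day 1 and day 0 for 2 genes by limma's interaction test, and in both the difference was positive. For Anxa11 the log2 effect was 1.70 higher at day 1 than at day 0 (adjusted p = 0.0413). For Pcsk1 it was 2.50 higher (adjusted p = 0.0463), because the day 0 effect of -2.97 had shrunk to -0.46 at day 1.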

How the results depend on the processing

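With 2 libraries a group and depth unknown, only large differences could be called. The 302 day 1 calls became 205 and 440 with 0.1 and 10 added before log2, 283 with no filter, 287 with a filter of 50, 310 with the comparison's genes alone, 279 with the spread of 8 libraries, 241 with a plain variance model, 302 with libraries centred on their median and 363 with no fold minimum. Centring could change little, because the score has the same steps in each library. The genes called were not all the same. Of the 279, 182 were among the 302, as were 278 of the 440, 204 of the 205 and 231 of the 241. They became 0 with the spread of the 4 libraries alone and 48 to 151 without a single library, where 46.4 to 75 percent were higher against 63.9 percent. The 10 day 0 calls became 6 with a filter of 50, 0 with the spread of 8 or of 4 libraries and 1 to 9 without a single library. The 2 interaction calls became 4 and 18 with 0.1 and 10 added, 5 with no filter, 0 with the spread of 8 libraries, 7 with the plain variance model and 0 to 5 without a single library. Shared calls of days 1 and 0 (5) became 10 with 10 added, 3 with a filter of 50 or the comparison's genes alone, 0 with the spread of 8 or of 4 libraries and 0 to 3 without a single library. Shared calls of days 1 and 3 (200) ran from 34 to 109 and of days 1 and 7 (165) from 31 to 85 without a single day 1 library. First-day calls ran from 356 to 641 with OSK and from 591 to 886 with OSK-cJun. The cause of these moves was not tested. Of 108 named genes 54 were called at day 1, and only these could lose a call. All 54 lost it with the spread of the 4 libraries alone and 14 with 0.1 added. More of them lost it without any single day 1 library, and 0 reversed.

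Replicates of different groups share only a number in the labels. Their deviations correlated at 0.2244 to 0.3911 over 6 pairs of groups. A replicate block over the 8 day 0 and day 1 libraries gave 716 calls at day 1 (295 of the 302 among them), 39 at day 0, 23 for the interaction, 27 shared between days 1 and 0, and 1487 and 1737 for the first days of OSK and OSK-cJun.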
